A study of Mus musculus with 8 samples.

Results

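A set of 10 genes that govern the passage from G1 into S phase was followed across 4 mouse models of endometrial cancer. It holds the D cyclins Ccnd1, Ccnd2 and Ccnd3, the E cyclins Ccne1 and Ccne2, the CDK inhibitors Cdkn1b, Cdkn1c, Cdkn2a and Cdkn2b, and Rb1. The genes were taken by symbol, as 10 of the 24419 symbols in the table of read counts, and all 10 passed the filter on low counts that left 15875 genes for testing. RNA of 8 libraries, 2 from each of the models TPM, TPMCa, TPMR1 and TPK, was sequenced in bulk. All 4 models started from uterus organoids of female CAG-Cas9-EGFP mice aged 8 to 10 weeks, a line that carries Cas9 and EGFP under the CAG promoter, and the organoid cells were injected into the uterus of female nude BALB/cA-nu mice aged 8 weeks. Edits in every model include an sgRNA against Trp53 and none of the groups lacked it. TPM also overexpressed Myc from a retrovirus, TPMCa was TPM with a Pik3ca E545K cDNA, TPMR1 was TPM with an sgRNA against Pik3r1, and TPK carried the sgRNA against Trp53 without the Myc construct. The sample labels describe tumor organoids, whereas the methods of the study describe tumor tissue collected about 2 months after transplantation, and host cells of the nude mice could be part of tissue libraries. As many mice as libraries are given for each model, so the spread between the libraries of a model includes that between animals.

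The D cyclins bind Cdk4 and Cdk6 and the E cyclins bind Cdk2, and the resulting kinases phosphorylate the Rb protein and release E2F transcription factors, which turn on genes of DNA replication. Inhibitors of the Ink4 family (Cdkn2a, Cdkn2b) bind Cdk4 and Cdk6, and those of the Cip/Kip family (Cdkn1b for p27, Cdkn1c for p57) bind cyclin-CDK complexes, p57 being the product of an imprinted gene with high expression in placenta and in differentiating tissues. In human endometrial cancer this axis is known for CCNE1 amplification and for p16 protein accumulation in serous-type tumors.

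Cdkn2b and Cdkn2a lie next to each other on chromosome 4 of GRCm38, both on the minus strand, Cdkn2b from 89306299 to 89311039 and Cdkn2a from 89274471 to 89294653. Cdkn2a has 2 first exons, and the upstream start gives the transcript of p19Arf, the downstream start that of p16Ink4a. The counts of these libraries are per gene symbol and do not separate the 2 transcripts. Promoter windows of RefSeq on GRCm38.p6, each running from 250 bases before to 50 bases after a transcription start, are printed for the 2 neighbors, whose levels went different ways below, and for Ccne1, a known E2F target on chromosome 7. Capitals mark matches on either strand to the E2F words TTTCCCGC, TTTGGCGC, TTTCGCGC or TTTGCCGC and to the GC box GGGCGG, which can overlap some of those words at an end. The windows are written 5′ to 3′ on the minus strand of the genome, which is the strand of each gene.

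Cdkn2b, chr4:89310983-89311282: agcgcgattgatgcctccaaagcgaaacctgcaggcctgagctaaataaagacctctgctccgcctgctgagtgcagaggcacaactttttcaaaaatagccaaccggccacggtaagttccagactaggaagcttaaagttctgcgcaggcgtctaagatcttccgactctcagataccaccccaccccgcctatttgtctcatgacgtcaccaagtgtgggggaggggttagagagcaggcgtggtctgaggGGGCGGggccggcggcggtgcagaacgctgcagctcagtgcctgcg
Cdkn2a, upstream start (p19Arf), chr4:89294570-89294869: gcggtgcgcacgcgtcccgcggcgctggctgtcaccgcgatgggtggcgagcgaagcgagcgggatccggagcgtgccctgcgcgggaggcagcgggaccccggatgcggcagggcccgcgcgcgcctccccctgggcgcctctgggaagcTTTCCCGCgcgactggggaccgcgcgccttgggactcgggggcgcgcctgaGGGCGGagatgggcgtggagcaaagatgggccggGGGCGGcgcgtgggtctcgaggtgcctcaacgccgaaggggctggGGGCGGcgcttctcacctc
Cdkn2a, downstream start (p16Ink4a), chr4:89282143-89282442: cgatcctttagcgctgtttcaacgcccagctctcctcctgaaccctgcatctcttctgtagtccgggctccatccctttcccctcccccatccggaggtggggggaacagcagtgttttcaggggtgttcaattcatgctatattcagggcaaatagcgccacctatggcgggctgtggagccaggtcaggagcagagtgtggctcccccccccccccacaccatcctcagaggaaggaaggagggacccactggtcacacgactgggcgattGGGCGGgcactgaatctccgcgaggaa
Ccne1, chr7:38107441-38107740: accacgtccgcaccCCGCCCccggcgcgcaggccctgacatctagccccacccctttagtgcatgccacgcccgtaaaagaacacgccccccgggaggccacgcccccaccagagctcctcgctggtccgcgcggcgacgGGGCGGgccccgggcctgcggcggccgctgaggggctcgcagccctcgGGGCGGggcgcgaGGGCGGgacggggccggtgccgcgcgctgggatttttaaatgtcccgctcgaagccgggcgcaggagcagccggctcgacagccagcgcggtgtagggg

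The upstream Cdkn2a window holds 1 E2F word, whose first base is at position -99 from the start, and 3 GC boxes, and it contains 45 CpG dinucleotides. The downstream Cdkn2a window holds 1 GC box and 12 CpG dinucleotides, and the Cdkn2b window holds 1 GC box and 18 CpG dinucleotides. The Ccne1 window holds 4 GC boxes, 41 CpG dinucleotides and no E2F word of these letters. Among all 32851 windows of the same length, 2.26% hold one of the E2F words and 35.7% hold a GC box, and the median window holds 7 CpG dinucleotides. The windows of Cdkn1b and of both Ccnd3 starts also hold GC boxes and no E2F word. Ccnd1, Ccnd2, Ccne2, Cdkn1c and Rb1 had no entry in the sequence table.

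Depth lay between 15748396 and 26943611 counts per library, so that 3 counts, taken as the floor, equal 0.116 to 0.198 CPM (read counts scaled to a common library size, here with TMM factors), a limit that covers counting error only. The models differed in cell type markers. The summed level of 6 epithelial markers (Epcam, Cdh1, Krt7, Krt8, Krt18, Krt19) was 2940 to 5490 CPM in TPM and TPK libraries, 23.6 to 73.3 CPM in TPMCa and 6.44 to 27.4 CPM in TPMR1, with none of the 6 at 0 in both libraries of a model. Replicate 1 of TPMR1 stood apart: 6 markers of steroid-producing cells (Nr5a1, Star, Cyp11a1, Hsd3b1, Cyp17a1, Lhcgr) summed to 5060 CPM there, to 453 CPM in replicate 2 and to 6.39 to 22.8 CPM in the other 6 libraries, and 2706 genes differed over 4-fold between the 2 TPMR1 libraries, against 749 to 1294 in the other models. The steroid marker sum of replicate 1 of TPMR1 was mostly Cyp11a1, at 3750 CPM. Hsd3b1 and Lhcgr went the other way, at 34.9 and 0.193 CPM in replicate 1 and 91 and 7.22 CPM in replicate 2. In bulk RNA, fewer cells of a type and less RNA per cell cannot be told apart. The part of these marker differences in the results below was not tested.

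**Figure D1:**
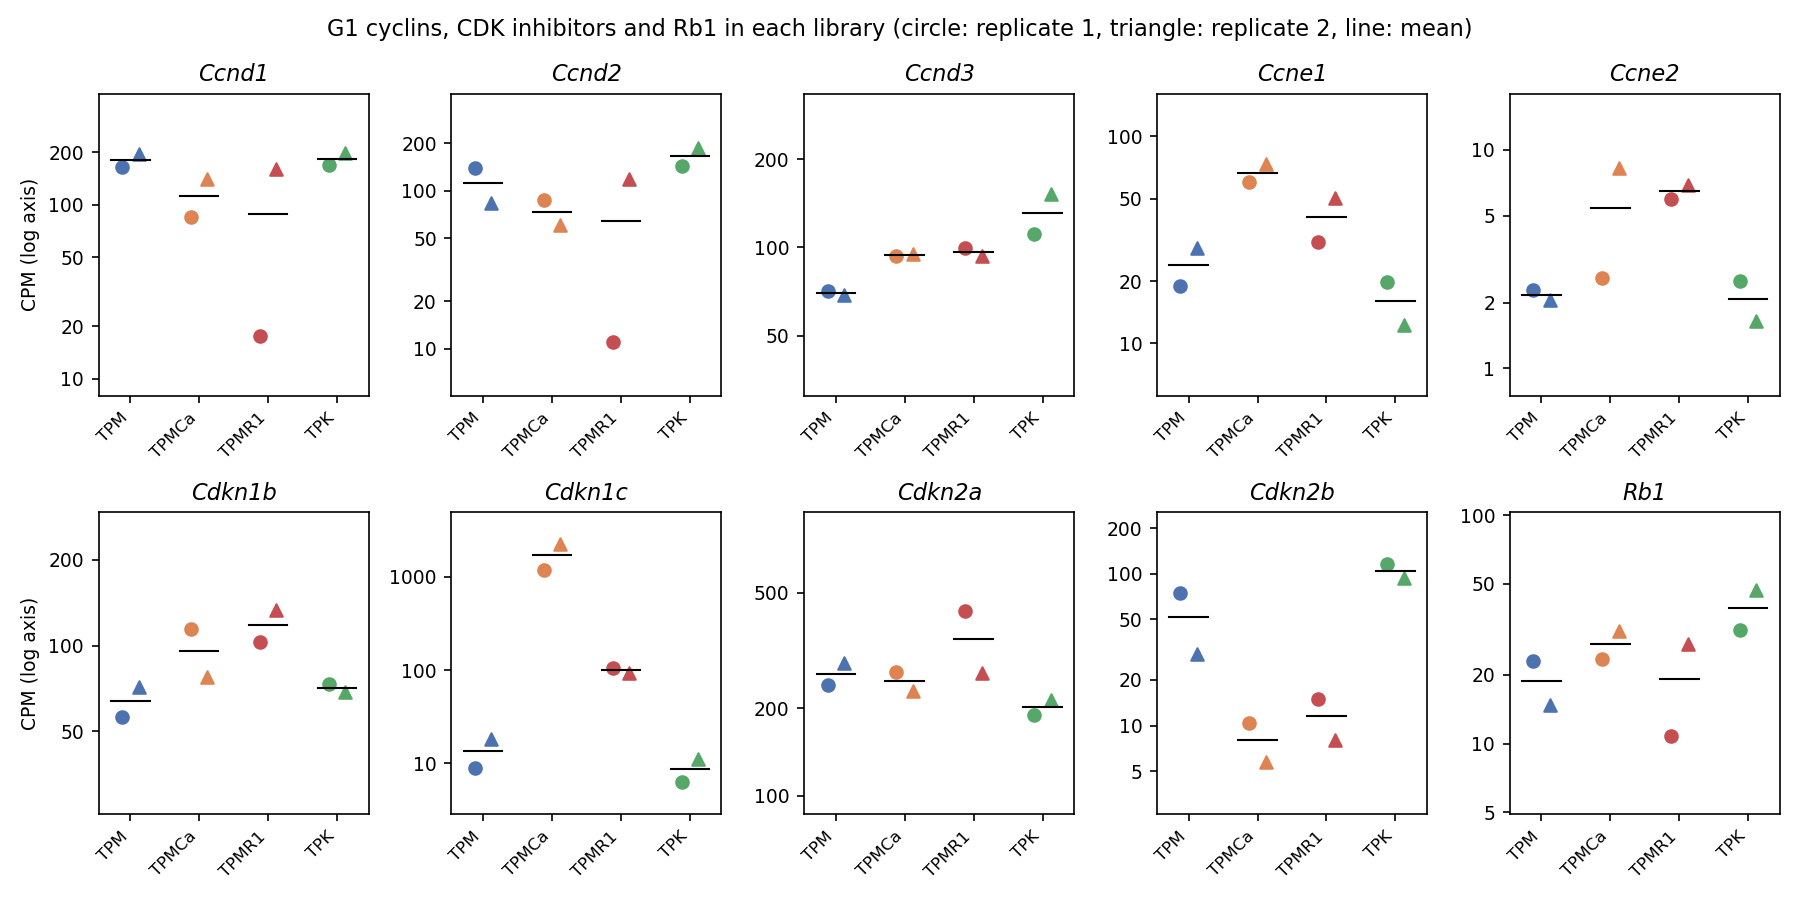
Level of each of the 10 genes in CPM on a log axis, with a panel per gene, a color per model, a circle for replicate 1, a triangle for replicate 2 and a line for the mean of the 2 libraries. Cdkn1c spans from 6.28 CPM in TPK to 2250 CPM in TPMCa, Cdkn2b has its 4 lowest libraries in TPMCa and TPMR1, and replicate 1 of TPMR1 is far below every other library for Ccnd1 and Ccnd2.

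Asked first was which of the 10 genes differed among the 4 models at all. By edgeR's quasi-likelihood test with Benjamini-Hochberg adjustment over all genes tested, 2 of the 10 did, Cdkn1c (adjusted p = 0.00393, rank 34 of 15875 genes by p) and Cdkn2b (adjusted p = 0.0294). The share of all genes called in that test was 7.32%. Ccne1 came next with an adjusted p of 0.0706 from edgeR, and by the likelihood ratio test of DESeq2, which called 29.8% of genes, its adjusted p was 0.000464. For Ccnd1, Ccnd2, Ccnd3, Ccne2, Cdkn1b, Cdkn2a and Rb1 the adjusted p from edgeR lay between 0.159 and 0.687. Model means differed by 192-fold between lowest and highest for Cdkn1c and by 13.3-fold for Cdkn2b, and by 1.68-fold to 4.5-fold for the other 8 genes. Without replicate 1 of TPMR1, Ccne1 was called in addition, and leaving out either TPK library or either TPMCa library left Cdkn1c alone. The share of all genes called also changed with the library left out, as given further below.

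Among the inhibitors, Cdkn1c (chromosome 7, 143458339 to 143461050, minus strand), which encodes p57, was by far the most variable. Its level was 9.03 and 18.1 CPM in the TPM libraries, 1170 and 2250 CPM in TPMCa, 105 and 94.1 CPM in TPMR1, and 6.28 and 11.1 CPM in TPK. Both TPMCa libraries were thus above every other library, both TPMR1 libraries were above every TPM and TPK library, and the TPM and TPK libraries overlapped. These levels rested on 110 to 316 reads in the TPM and TPK libraries and on 18555 and 40378 reads in TPMCa, so that no library was near the floor. Exons of Cdkn1c overlap those of an antisense gene, Gm44732, and whether counting used strand is not given in the sources used here.

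In TPMCa against TPM, Cdkn1c rose by 6.98 on the log2 scale (SE 0.636, 126-fold, adjusted p = 0.00702 from edgeR), as the single gene of the 10 called, where 3.48% of all genes were called and 0.466% were called higher. In TPMR1 against TPM it rose by 2.88 on the log2 scale (SE 0.527, 7.36-fold, adjusted p = 0.0311 from edgeR), again as 1 of 10, beside 5.58% of all genes called and 1.08% called higher. DESeq2 called 3 of the 10 in TPMCa (also Ccne1 and Cdkn2b), beside 16.1% of all genes, and 2 in TPMR1 (also Cdkn2b), beside 17.5%. At the thresholds of the study, which are a log2 fold change past 1 in size and a p below 0.05 with no adjustment, edgeR gave the same counts of 3 and 2, beside 18.9% and 20.1% of all genes. Both comparisons share the TPM libraries. The TPMCa call held in each of 11 alternatives, with log2 fold changes of 6.44 to 7.56. The TPMR1 call was lost without replicate 1 of TPM (2.49, adjusted p = 0.184), replicate 2 of TPM (3.46, adjusted p = 0.0858) or replicate 1 of TPMR1 (2.80, adjusted p = 0.0581) and with only the TPM and TPMR1 libraries in the edgeR fit (adjusted p = 0.0898), over a range of adjusted p from 4.05e-06 to 0.184 across its alternatives.

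Between TPMR1 and TPMCa directly, Cdkn1c was 17.1-fold lower in TPMR1 (log2 fold change -4.10, 95% confidence interval -5.42 to -2.78), with an adjusted p of 0.292 from edgeR and of 1.06e-10 from DESeq2. In that comparison edgeR called 0 of the 10 genes and 0% of all genes, 1 of the 10 and 11.8% of all genes had an unadjusted p under 0.05, and 10.5% of all genes passed the thresholds of the study, as did Cdkn1c of the 10. DESeq2 called Cdkn1c alone of the 10, beside 4.86% of all genes. TPK did not differ from TPM beyond the spread, with a log2 fold change of -0.64 (95% confidence interval -1.83 to 0.55, adjusted p = 0.811 from edgeR). The order of the models was therefore TPK, TPM, TPMR1 and TPMCa, and the step from TPK to TPM was within the spread of replicates. In the same comparisons, 4 of 6 epithelial markers were called lower in TPMCa than in TPM and 6 of 6 in TPMR1, while the sum of 5 endothelial markers was 367 and 482 CPM in TPMCa, 145 and 599 CPM in TPMR1 and 50.1 to 141 CPM in TPM and TPK, with 0 of the 5 called by edgeR in any comparison.

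Cdkn1b (chromosome 6), which encodes p27, moved far less than its relative. It stood at 56.3 and 71.8 CPM in TPM, at 114 and 77.5 CPM in TPMCa, at 103 and 134 CPM in TPMR1 and at 73.6 and 68.9 CPM in TPK. All 4 libraries of TPMCa and TPMR1 were above all 4 of TPM and TPK, but by edgeR the differences from TPM missed the threshold, at 0.58 (adjusted p = 0.293) for TPMCa and 0.89 (adjusted p = 0.132) for TPMR1 on the log2 scale. Within a library the ratio of Cdkn1c to Cdkn1b counts, which does not depend on scaling between libraries, was 0.0854 to 0.251 in TPM and TPK, 0.703 and 1.02 in TPMR1 and 10.3 and 29 in TPMCa. Per kilobase of exon, p57 transcripts were at 6.66 ± 3.15 CPM (SD, n = 2) beside 14.1 ± 2.4 CPM for p27 in TPM, and at 837 ± 372 CPM beside 21 ± 5.66 CPM in TPMCa.

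**Figure D2:**
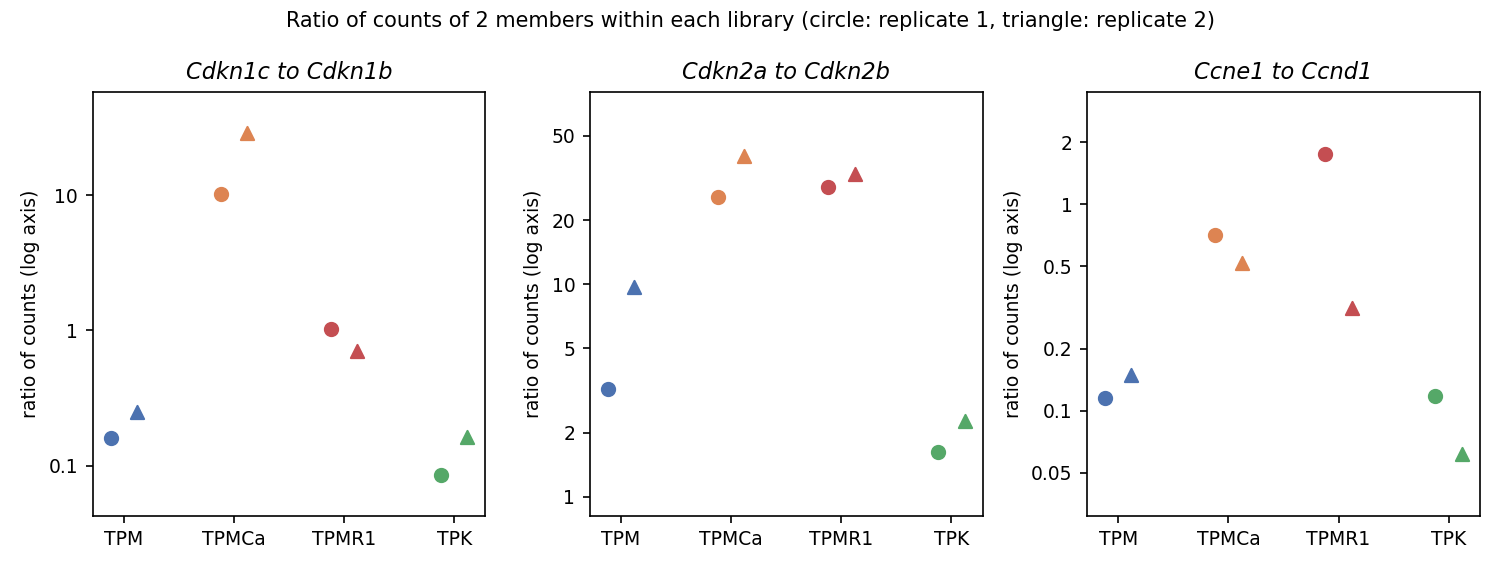
Ratio of the read counts of 2 genes within each library on a log axis (Cdkn1c to Cdkn1b, Cdkn2a to Cdkn2b, Ccne1 to Ccnd1), by model, with a circle for replicate 1 and a triangle for replicate 2. In all 3 panels the TPMCa and TPMR1 libraries lie above the TPM and TPK libraries, and for Ccne1 to Ccnd1 the TPMR1 libraries are far apart, at 1.75 and 0.315.

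The Ink4 genes of chromosome 4 parted from each other. Cdkn2b, which encodes p15, was at 74.7 and 29.6 CPM in TPM, at 10.4 and 5.73 CPM in TPMCa, at 15 and 8 CPM in TPMR1 and at 116 and 93.6 CPM in TPK. Every TPK library was above every TPM library, and every TPM library above every TPMCa and TPMR1 library, while TPMCa and TPMR1 overlapped. Cdkn2a, its neighbor, was at 240 and 287 CPM in TPM, 267 and 230 CPM in TPMCa, 432 and 264 CPM in TPMR1 and 190 and 213 CPM in TPK, so that both TPK libraries were below all others and the other 3 models overlapped.

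Against TPM, Cdkn2b was at -2.70 on the log2 scale in TPMCa (95% confidence interval -4.08 to -1.31, adjusted p = 0.0598 from edgeR, 0.000328 from DESeq2) and at -2.18 in TPMR1 (-3.53 to -0.82, adjusted p = 0.08 from edgeR, 0.00444 from DESeq2). Against TPM, the mean of TPMCa and TPMR1 was lower by 5.41-fold (log2 fold change -2.44, SE 0.456, adjusted p = 0.0228 from edgeR). In that comparison 2 of the 10 genes were called, Cdkn1c higher and Cdkn2b lower, beside 8.89% of all genes called, 1.45% higher and 7.44% lower. DESeq2 called 3 of the 10, Ccne1 in addition, beside 18.9% of all genes. The Cdkn2b call held in 9 of 13 alternatives. It was lost without replicate 1 of TPM, the higher TPM library, where the log2 fold change was -1.61. It was also lost without either TPMCa library and with only the models compared in the fit. For Cdkn2a the log2 fold changes against TPM were -0.09 in TPMCa (95% confidence interval -0.82 to 0.65) and 0.40 in TPMR1 (-0.33 to 1.14), with adjusted p of 0.895 and 0.488 from edgeR.

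TPK was then set against the models with Pik3ca or Pik3r1 changes. In TPK against the mean of TPMCa and TPMR1, Cdkn2b was 10.9-fold higher (log2 fold change 3.44, SE 0.462, adjusted p = 0.0062 from edgeR), and this call held in each of 13 alternatives, at 3.25 to 3.71 on the log2 scale. Cdkn2a was at -0.55 (95% confidence interval -1.20 to 0.10, adjusted p = 0.221 from edgeR) in the same comparison. Within libraries, the ratio of Cdkn2a to Cdkn2b counts was 1.63 and 2.28 in TPK and 3.21 and 9.7 in TPM. It was 25.7 and 40.1 in TPMCa and 28.8 and 33 in TPMR1, above every library of the other 2 models. The epithelial marker sum went in the same direction as Cdkn2b, with 6 of 6 epithelial markers called higher in TPK than in the mean of TPMCa and TPMR1, and so did the squamous markers (Krt5, Krt14, Trp63, Krt6a, Dsg3, Sprr1b), with 6 of 6 called higher. Krt5, Krt6a, Dsg3 and Sprr1b had 0 counts in both TPMR1 libraries, and Sprr1b had 0 counts in both TPMCa libraries.

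Across this comparison 3 of the 10 genes were called, Cdkn2b higher in TPK and Cdkn1c (log2 fold change -5.57, SE 0.579, adjusted p = 0.00278 from edgeR) and Ccne1 lower, beside 14.4% of all genes called, 10.3% higher and 4.06% lower. DESeq2 called 4 of the 10, Ccne2 in addition, beside 27.3% of all genes. The libraries of TPK did not overlap those of TPMCa and TPMR1 for any of the 10 genes, with 5 genes higher and 5 lower, beside 40.9% of all genes without overlap, 22.4% higher and 18.4% lower. Ccnd1, Ccnd2, Ccnd3, Cdkn2b and Rb1 were on the higher side and Ccne1, Ccne2, Cdkn1b, Cdkn1c and Cdkn2a on the lower side. Without replicate 1 of TPMR1 the same 3 genes were called.

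**Figure D3:**
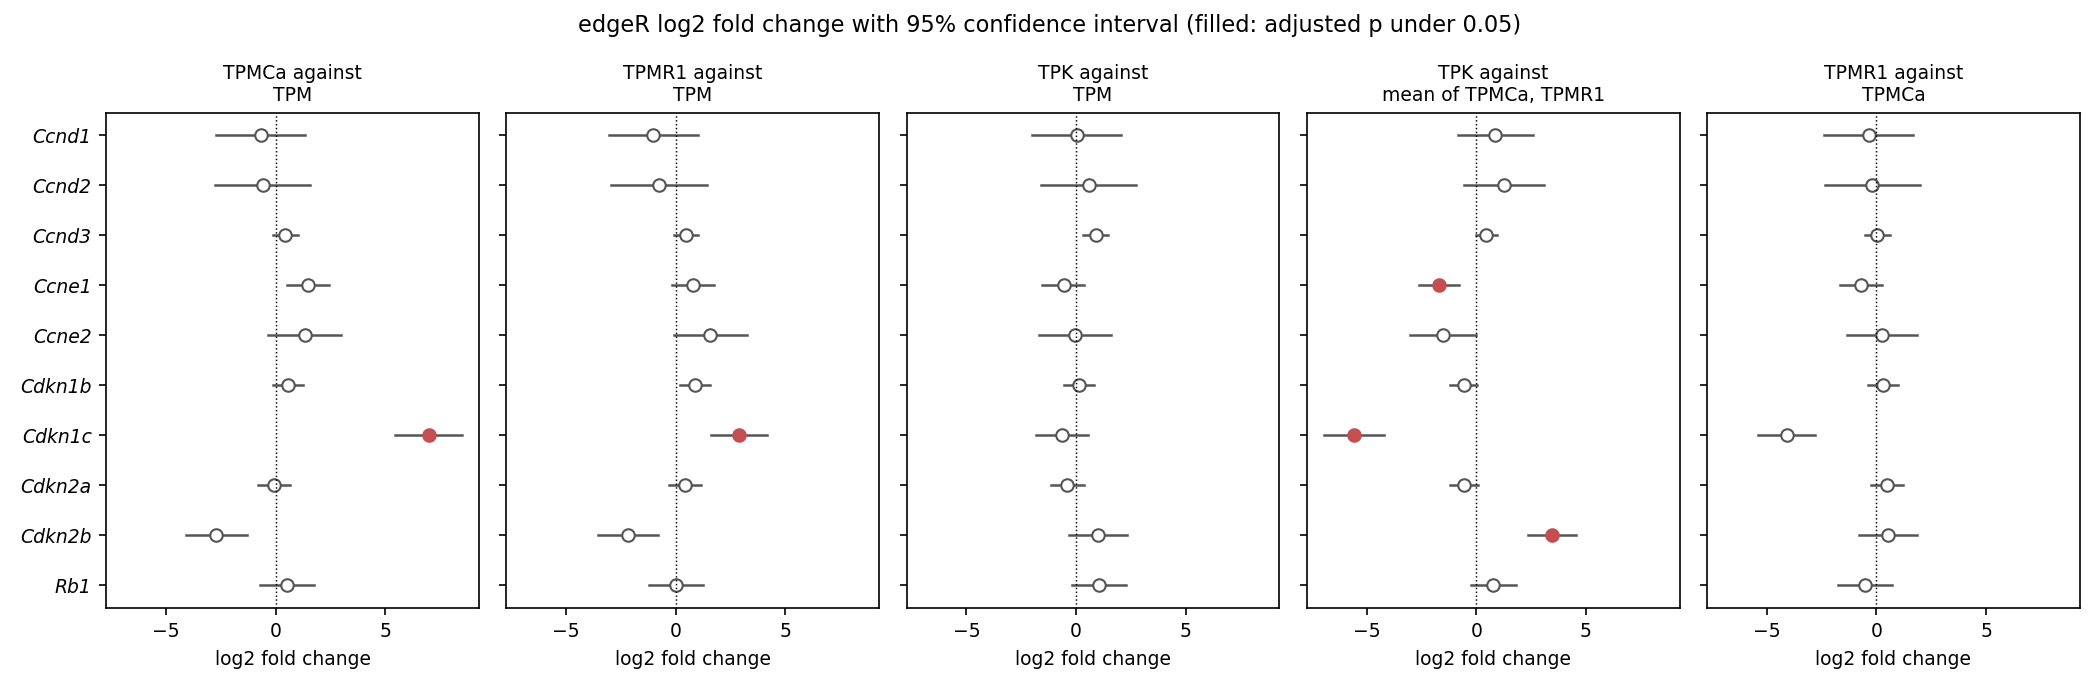
Log2 fold change of each gene from edgeR in 5 comparisons, with 95% confidence intervals, filled where the adjusted p was under 0.05. Cdkn1c is the outermost point of the panels of TPMCa and TPMR1 against TPM, no gene is filled in the panels of TPK against TPM and TPMR1 against TPMCa, and Cdkn2b, Cdkn1c and Ccne1 are filled in the panel of TPK against the mean of TPMCa and TPMR1.

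Of the E cyclins, which activate Cdk2 late in G1, Ccne1 (chromosome 7, 38097984 to 38107534) was the more abundant per kilobase of exon in every model, with means of 6.05 to 25 CPM per kb against 0.595 to 1.85 CPM per kb for Ccne2. It was at 18.9 and 28.9 CPM in TPM, 60 and 73.2 CPM in TPMCa, 30.9 and 50.3 CPM in TPMR1 and 19.9 and 12.3 CPM in TPK. All 4 libraries of TPMCa and TPMR1 were above all 4 of TPM and TPK, the TPMCa libraries were above the TPMR1 libraries, and TPM and TPK overlapped. In TPK against the mean of TPMCa and TPMR1 it was 3.24-fold lower (log2 fold change -1.69, SE 0.376, adjusted p = 0.0308 from edgeR). That call was lost without either TPK library (adjusted p = 0.0819 and 0.219 from edgeR) and without either TPMCa library (0.0731 and 0.0765), within a range of 0.000232 to 0.219 over its alternatives.

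Against TPM, Ccne1 was at 1.48 on the log2 scale in TPMCa (SE 0.407, adjusted p = 0.103 from edgeR, 0.0126 from DESeq2) and at 0.77 in TPMR1 (SE 0.401, adjusted p = 0.31 from edgeR). Ccne2 (chromosome 4) was at 2.29 and 2.06 CPM in TPM, 2.6 and 8.23 CPM in TPMCa, 5.98 and 6.94 CPM in TPMR1 and 2.51 and 1.65 CPM in TPK, on 25 to 155 reads a library. Its differences from TPM, 1.32 in TPMCa and 1.57 in TPMR1 on the log2 scale, missed the threshold of edgeR (adjusted p = 0.313 and 0.238), and the first rested on replicate 2 of TPMCa, without which it was 0.26. The summed level of 4 proliferation markers (Mki67, Top2a, Ccnb1, Plk1) followed the same split as Ccne1. It was 632 to 936 CPM in TPMCa and TPMR1 and 372 to 533 CPM in TPM and TPK. Singly, Mki67 and Ccnb1 showed this split, while Plk1 and Top2a overlapped. Plk1 was at 69.1 CPM in replicate 2 of TPK and at 55.1 CPM in replicate 1 of TPMR1. Top2a was at 240 CPM in replicate 2 of TPM and at 238 CPM in replicate 1 of TPMR1. By edgeR, 0 of the 4 were called in any comparison.

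The D cyclins, which link growth factor signaling to Cdk4 and Cdk6, showed no call in any of the 6 comparisons by edgeR or by DESeq2. Ccnd1 (chromosome 7) was at 165 and 194 CPM in TPM, 84.8 and 140 CPM in TPMCa, 17.6 and 160 CPM in TPMR1 and 168 and 197 CPM in TPK. Ccnd2 (chromosome 6) was at 139 and 83 CPM in TPM, 86.7 and 60.8 CPM in TPMCa, 11.1 and 118 CPM in TPMR1 and 144 and 187 CPM in TPK. For both genes the lowest library by a wide margin was replicate 1 of TPMR1, the library with the highest steroid marker sum. That library also had the lowest sums of epithelial (6.44 CPM), fibroblast (872 CPM), macrophage (249 CPM), neutrophil (13.8 CPM) and smooth muscle (21 CPM) markers. In the other libraries the fibroblast sum was 2410 to 16600 CPM and the macrophage sum 416 to 3970 CPM. Its endothelial (145 CPM) and proliferation (632 CPM) sums were not the lowest. The part of these differences in the D cyclin levels was not tested. The 2 TPMR1 libraries differed by 9.05-fold for Ccnd1 and by 10.6-fold for Ccnd2.

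The comparison of TPMR1 with TPM turned on which TPMR1 library was kept. Against TPM, Ccnd1 in TPMR1 was at -1.02 on the log2 scale (95% confidence interval -3.06 to 1.03, adjusted p = 0.534 from edgeR) and Ccnd2 at -0.78 (-2.95 to 1.40, adjusted p = 0.665). Without replicate 2 of TPMR1 they were at -3.34 and -3.31 (adjusted p = 0.0101 and 0.0132 from edgeR), and without replicate 1 at -0.17 and 0.09 (adjusted p = 0.835 and 0.941). In TPMCa, Ccnd1 was at -0.67 and Ccnd2 at -0.59 against TPM, with adjusted p of 0.674 and 0.738 from edgeR.

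Ccnd3 (chromosome 17) was the steadiest of the 3, at 71.2 and 68.8 CPM in TPM, 93.4 and 95 CPM in TPMCa, 99.5 and 93.4 CPM in TPMR1 and 111 and 152 CPM in TPK. Its libraries of TPMCa, TPMR1 and TPK were all above both TPM libraries. In TPK against TPM it was at 0.91 on the log2 scale (SE 0.239, 95% confidence interval 0.34 to 1.48), with an adjusted p of 0.653 from edgeR and 0.0691 from DESeq2. In that comparison edgeR and DESeq2 called 0 of the 10 genes. Among all genes edgeR called 0% and DESeq2 1.52%, and Ccnd3 was the 1 gene of the 10 with an unadjusted p under 0.05, beside 7.17% of all genes. As a share of all D cyclin reads, which is not per length, Ccnd3 took 19% and 19.9% in TPM, 26.3% and 28.4% in TPK, 35.2% and 32.1% in TPMCa, and 77.6% and 25.2% in TPMR1, where the first value is replicate 1. Exons of Ccnd1, Ccnd2 and Ccnd3 overlap exons of genes on the opposite strand, among them LTO1 and Bysl, so some reads may belong to these.

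Rb1 (chromosome 14), the pocket protein that the G1 kinases inactivate, was at 23 and 14.7 CPM in TPM, 23.5 and 31.1 CPM in TPMCa, 10.8 and 27.4 CPM in TPMR1 and 31.5 and 46.9 CPM in TPK. Both TPK libraries were above every other library, if by little, and the rest overlapped apart from TPMCa above TPM. No comparison passed the test, and the difference between TPK and TPM was 1.05 on the log2 scale (95% confidence interval -0.18 to 2.29, adjusted p = 0.718 from edgeR). Exons of Lpar6 and Rcbtb2 on the opposite strand overlap exons of Rb1.

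Per kilobase of exon, which allows levels of different genes to be set side by side, Cdkn2a was the highest of the 10 in TPM (225 ± 28.3 CPM per kb, SD, n = 2), in TPMR1 (297 ± 102) and in TPK (172 ± 14.1). In TPMCa it was second, at 212 ± 22.6 CPM per kb, to Cdkn1c. Second place was held by Ccnd1 in TPM (38.1 ± 4.38), Cdkn1c in TPMR1 (48.9 ± 3.75) and Cdkn2b in TPK (75.4 ± 11.5). In each model at least 1 inhibitor gene thus outranked every cyclin on this scale. In TPM this was Cdkn2a alone, whose counts do not separate the p16Ink4a transcript from that of p19Arf, and Cdkn2b stood at 37.5 CPM per kb there. Ccne2 was lowest in all 4 models. These lengths are the union of all annotated exons of GENCODE M21 and do not follow which isoform was used.

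The other genes of the G1 pathway were taken from 7 lists that hold 61 genes, of which 60 were in the table and tested. In TPMCa against TPM 1 of the 60 was called by edgeR (1.67%, beside 3.48% of all genes), which was E2f1. In TPMR1 against TPM 4 were called (6.67%, beside 5.58% of all genes), E2f1, Tfdp2 and Skp2 higher and Trp53 lower. Both shares were near those of all genes. E2f1, the transcription factor that Rb restrains, was at 14.4 and 14.1 CPM in TPM, 39.4 and 63.4 CPM in TPMCa, 49.3 and 54.1 CPM in TPMR1 and 16.2 and 13.4 CPM in TPK. Its 4 libraries of TPMCa and TPMR1 were all above the other 4, and it rose by 1.85 on the log2 scale in TPMCa (adjusted p = 0.0357 from edgeR) and by 1.86 in TPMR1 (adjusted p = 0.0281). Skp2, the ubiquitin ligase subunit that marks p27 for degradation, was at 19.4 and 18.8 CPM in TPM, 47.7 and 60.2 CPM in TPMCa, 41.8 and 64.9 CPM in TPMR1 and 15.2 and 14.6 CPM in TPK. It rose by 1.48 on the log2 scale in TPMR1 (adjusted p = 0.0456 from edgeR), with 1.5 in TPMCa just missing the threshold (adjusted p = 0.0554).

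Tfdp2, a partner of the E2F factors, rose by 2.2 on the log2 scale in TPMR1 (adjusted p = 0.0311 from edgeR), and Trp53, whose edits all models share, fell by 1.42 (adjusted p = 0.0478). In TPK against the mean of TPMCa and TPMR1 8 of the 60 were called by edgeR (13.3%, beside 14.4% of all genes), a share near that of all genes. All 8 were lower in TPK, where 4.06% of all genes were called lower, with log2 fold changes of -1.85 for Skp2, -1.80 for E2f1, -1.66 for Tfdp2, -1.61 for Cdc25a, -1.46 for Cdt1, -1.37 for Cdc6, -1.33 for Cdc45 and -1.10 for Mcm6. Cdc25a activates Cdk2, and Cdt1, Cdc6, Cdc45 and Mcm6 license or start replication origins. In TPK against TPM and in TPMR1 against TPMCa edgeR called 0 of the 60 and 0% of all genes. DESeq2 called 1 and 2 of the 60, beside 1.52% and 4.86% of all genes. The E2F target genes as a list were higher in TPMCa than in TPM for 16 of 16, with a median log2 fold change of 0.93 beside -0.01 over all genes, and for 15 of 16 in TPMR1, with a median of 0.82 beside 0.03. Over all genes, 49.3% were higher in TPMCa and 51.6% in TPMR1. None of the 16 was called by edgeR in either of these comparisons. DESeq2 called 7 and 3 higher, beside 16.1% and 17.5% of all genes called in either direction.

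**Figure D4:**
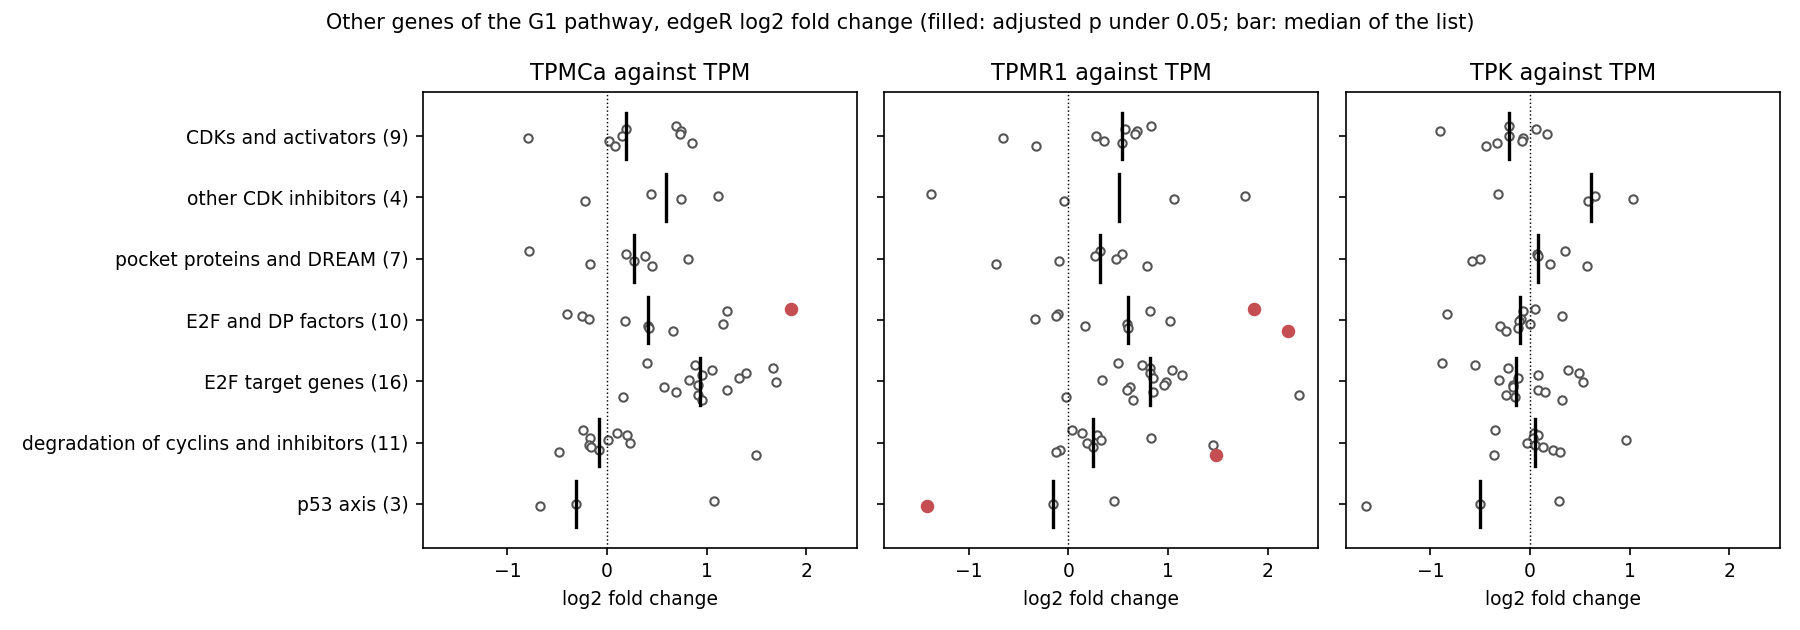
Log2 fold change from edgeR of the other G1 pathway genes in 7 lists (number of genes tested in parentheses) for TPMCa, TPMR1 and TPK against TPM, with a bar at each list's median and filled points where the adjusted p was under 0.05. The E2F target genes lie right of 0 for 16 of 16 in TPMCa and 15 of 16 in TPMR1 and around 0 in TPK, where their median is -0.14.

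Of the direct partners, the kinases Cdk2, Cdk4 and Cdk6 were not called by edgeR in any comparison. Cdk4 was at 241 to 434 CPM and Cdk2 at 36.9 to 76.1 CPM over the 8 libraries, and Cdk6 was at 5.73 to 20.8 CPM. Cdk2 was at 0.73 on the log2 scale in TPMCa and 0.67 in TPMR1 against TPM (adjusted p = 0.182 and 0.198 from edgeR). Cdkn1a, the p53 target that encodes p21, was at 154 and 119 CPM in TPM, 249 and 121 CPM in TPMCa, 31.5 and 73.1 CPM in TPMR1 and 104 and 114 CPM in TPK, and its TPMR1 libraries were below every other library, at -1.38 against TPM (adjusted p = 0.159 from edgeR). The other Ink4 genes, Cdkn2c and Cdkn2d, were at 1.77 and 1.06 in TPMR1 against TPM on the log2 scale (adjusted p = 0.277 and 0.13 from edgeR), so that neither followed Cdkn2b below TPM. Rbl1 and Rbl2, the pocket proteins p107 and p130, were at -0.73 and 0.79 in the same comparison (adjusted p = 0.235 and 0.24), and Mdm2, the ligase of p53, was at 1.07 in TPMCa (adjusted p = 0.11).

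The genes whose pattern was most like that of the 3 members with the widest range of model means were found by Pearson's r of log2 CPM over the 8 libraries among 10420 genes with a mean log2 CPM of at least 3. The 8 libraries are 4 pairs, so these values largely reflect the model means. For Cdkn1c they were Ltv1 (r = 0.979), Prkd3 (0.975) and Zcchc24 (0.966), and the widest of these, Prkd3, spanned only 36 to 126 CPM in model means. For Cdkn2b they were Pak4 (0.986), Rassf7 (0.985) and Gsto1 (0.985), and Gsto1 had means of 4820 CPM in TPM, 157 in TPMCa, 178 in TPMR1 and 8400 in TPK. For Ccnd2 they were Rnf217 (0.989), Phc1 (0.98) and Stk39 (0.971), of which Rnf217 had model means of 21 to 56.2 CPM.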

How the data were processed

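The authors had adapter and low-quality reads removed, aligned the rest to mm10 with STAR (version not given) and deposited raw read counts per gene symbol, which were used here. The counter, its annotation and its use of strand are not given in the sources used here. A second deposited table, of counts normalized with DESeq2, was not used. The TPM columns carry a longer name, TPMS, and were matched by that name. Of the symbols, 25 had been turned into dates.

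Counts were scaled by TMM and filtered with filterByExpr, and all 8 libraries entered a single fit by the quasi-likelihood test of edgeR 4.0.16 in R 4.3.3 with a term for the model. P-values were adjusted by Benjamini-Hochberg over 15875 genes, and called means an adjusted p under 0.05. CPM used TMM-scaled totals and log2 CPM a prior count of 2. DESeq2 1.42.0, other scalings and filters, a term for the replicate number, fits of only the models compared, the study's thresholds and leaving out each library were alternatives. The fitting script was tested on simulated data.

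Named were all 10 members, direct partners, up to 5 called genes of the other pathway lists per comparison by adjusted p (the TPK comparison lists all 8 of its calls, 3 of them named after their values were seen) and the 3 most alike genes. The members and lists were chosen with earlier results of these data known. Coordinates are from GENCODE M21 (GRCm38), promoter sequences from RefSeq. Results on some engineered genes are not reported here.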

Additional observations from a re-analysis of the deposited data

How the results depend on the processing

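The numbers of the 10 genes called by edgeR were 1 in TPMCa against TPM, 1 in TPMR1 against TPM, 2 for the mean of both against TPM, 0 in TPK against TPM, 3 in TPK against the mean and 0 in TPMR1 against TPMCa. They became 3, 2 and 1 for TPMCa against TPM, TPMR1 against TPM and TPMR1 against TPMCa under DESeq2 and likewise 3, 2 and 1 at an unadjusted p under 0.05 with a log2 fold change beyond 1. TPMCa against TPM gave 2 with library size alone and 2 with no filter. With only the models compared in the fit, TPMR1 against TPM gave 0 and the mean against TPM 1.

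The sample titles do not say whether same-numbered libraries are related. Deviations of same-numbered libraries correlated at -0.07 to -0.01 in the 6 pairs of models. These values cannot show whether the numbers pair the libraries, since differences between single libraries enter them as well. With the replicate block, 2 genes (Cdkn1c and Cdkn2b) were called in TPMCa against TPM and 2 in TPMR1 against TPM, Ccne1 in TPK against the mean had an adjusted p of 0.0567 from edgeR (0.000232 to 0.219 over its alternatives), and Rb1 in TPMR1 against TPM turned to -0.12 on the log2 scale. With library size alone, the median of all genes moved by -0.12 in TPK against TPM and by -0.13 in TPK against the mean, and Ccnd1 in TPK against TPM turned to -0.1.

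Leaving out 1 library gave 1 call of 10 in TPMCa against TPM (0.226 to 1.38% of all genes), 0 to 3 in TPMR1 against TPM (0.98 to 12.3%), 1 to 4 for the mean against TPM (2.72 to 12.3%), 0 in TPK against TPM (0%), 2 to 5 in TPK against the mean (3.23 to 18.7%), 0 to 3 in TPMR1 against TPMCa (0 to 8.24%) and 1 to 5 for any difference (1.01 to 19.1%). The highest counts came without replicate 2 of TPMR1, where Ccnd1 and Ccnd2 were also called. Log2 fold changes that changed sign when 1 library was left out lay, in TPK against TPM, between -0.1 and 0.15 for Ccnd1, -0.4 and 0.21 for Ccne2 and -0.03 and 0.34 for Cdkn1b. They lay between -0.2 and 0.05 for Cdkn2a in TPMCa against TPM, and in TPMR1 against TPM between -3.31 and 0.09 for Ccnd2 and -0.8 and 0.54 for Rb1. For the mean against TPM they lay between -0.04 and 0.32 for Cdkn2a and -0.14 and 0.65 for Rb1. In TPMR1 against TPMCa they lay between -2.67 and 0.51 for Ccnd1, -2.72 and 0.68 for Ccnd2, -0.01 and 0.08 for Ccnd3, -0.37 and 1.31 for Ccne2, -0.01 and 0.98 for Cdkn2b, and -1.34 and 0.01 for Rb1. None of these had been called. Single-gene values kept their side of the threshold and their sign in 405 of the refits that left no library out, with 10 newly called, 3 no longer called and 2 reversed, and in 241 of those that left out 1, with 9 newly called, 10 no longer called and 20 reversed. Of the other G1 pathway genes, edgeR and DESeq2 called 1 and 11 in TPMCa against TPM, 4 and 8 in TPMR1 against TPM, 2 and 15 for the mean against TPM, 0 and 1 in TPK against TPM, 8 and 18 in TPK against the mean and 0 and 2 in TPMR1 against TPMCa. These are counts of the 60 genes tested. In the same order, edgeR called 3.48%, 5.58%, 8.89%, 0%, 14.4% and 0% of all genes. DESeq2 called 16.1%, 17.5%, 18.9%, 1.52%, 27.3% and 4.86% of all genes. The cause of the differences between settings was not tested.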

Other observations

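Among the other members of the 7 pathway lists, Cdkn2d was higher than both TPM libraries (18.8 and 14.3 CPM) in all 6 libraries of the other models, at 30.3 and 25.2 CPM in TPMCa, 41.1 and 27.7 CPM in TPMR1 and 38.3 and 29.5 CPM in TPK, with adjusted p of 0.262, 0.13 and 0.678 from edgeR. Trp53 was at 106 and 131 CPM in TPM, 78.4 and 70.2 CPM in TPMCa, 33.1 and 55.1 CPM in TPMR1 and 38.3 and 36.9 CPM in TPK, where each model other than TPM carried less than both TPM libraries, with an adjusted p of 0.653 from edgeR in TPK against TPM at -1.65 on the log2 scale (SE 0.307). Tfdp2 was at 176 and 92.2 CPM in TPMR1 and at 21.9 to 49.1 CPM in the other 6 libraries.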
